A study of Mus musculus with 6 samples.

Results

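The proteasome subunit genes are those whose names on the array begin with Psma, Psmb, Psmc or Psmd followed by a number, together with Psme1, Psme2, Psme3 and Psme4, and the choice used no expression value. This rule found 40 of the 19613 genes measured, whereas Psma1, Psmd1 and Psmb11 of the same families were not analysed here. They were followed in 6 cultures of embryoid bodies, which are aggregates grown from mouse HBG3 embryonic stem cells with a green fluorescent reporter under the motor neuron gene HB9 (Mnx1). The embryoid bodies contain spinal motor neurons among other cells, so every value is a mean over a mixture. All 6 cultures had been exposed for 1 day to blood fluid from male mice of strain B6CBA-Tg(HDexon1)62Gpb/3J, a model of Huntington's disease that carries the first exon of human HTT with an expanded repeat, sampled before symptoms. This fluid is named plasma in the sample labels but serum in the methods, and it is called serum here. The samples served to ask whether an expression assay built on serum from a model of amyotrophic lateral sclerosis responds to another neurodegenerative disease. The arrays carry the replicate numbers 2, 4, 5, 6, 7 and 8 and form a single group. There is thus no control to compare with, no difference between conditions was tested, and what follows gives levels, their SD and how they vary from array to array. The paper describes 6 serum samples, so the SD between arrays also holds any differences between sera. Nothing states that the cultures were grown separately, so this SD may be partly technical too.

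The proteasome is the large protease that degrades proteins marked with ubiquitin. Its core is a barrel of alpha subunits (Psma) at both ends and beta subunits (Psmb) in the middle, where Psmb5, Psmb6 and Psmb7 carry the cutting sites. The regulatory particle caps the core, and its ATPases (Psmc) unfold the substrate while its non-ATPases (Psmd) bind ubiquitin, remove it and hold the particle together. In immune cells, and in other cells exposed to interferon, Psmb8, Psmb9 and Psmb10 take the places of Psmb5, Psmb6 and Psmb7 to form the immunoproteasome, and Psme1 and Psme2 form an activator that caps it. In neurons the constitutive form is the usual one, and loss of protein clearance is a long studied theme in Huntington's disease.

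Values are log2 intensities from exon arrays, 1 per gene and array, and an SD is the SD over the 6 arrays on that log2 scale. The background level was set at 7.47, under which lay 95% of 1032 olfactory receptor genes, a family that most tissues do not use, and the mean of a gene had to exceed it. The median intensity of an array ran from 296 to 311 on the linear scale, and the mean correlation of an array with the other 5 over all genes was lowest in replicate 8, at 0.992, followed by replicate 5, at 0.994. Replicate 8 therefore stands apart from the rest to a small degree, and values that rest mainly on replicate 5 or 8 are also given without it where that moved them by over 1.5 times. Intensities of different genes depend on their own probes, so levels are set against background and against other arrays, not against each other.

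Of the 40 proteasome genes, 37 were above background, a share of 92.5% against 65.2% of all genes on the array. Each of these 37 was above background in every one of the 6 arrays. The 3 others, Psmb8, Psmb9 and Psma8, were below it in every array. In a mixture of cells such as this, fewer cells that use a gene and less RNA per cell cannot be told apart. All 6 measured alpha subunits of the ring, all 7 beta subunits, all 6 ATPases, all 10 measured non-ATPases and the 3 assembly chaperones were above background, whereas 3 of the 5 immunoproteasome genes were. At the stricter level of 8.33, the 99th percentile of the olfactory receptor genes, 36 were above background, and the gene lost was Psmb10, also of the immunoproteasome.

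**Figure D1:**
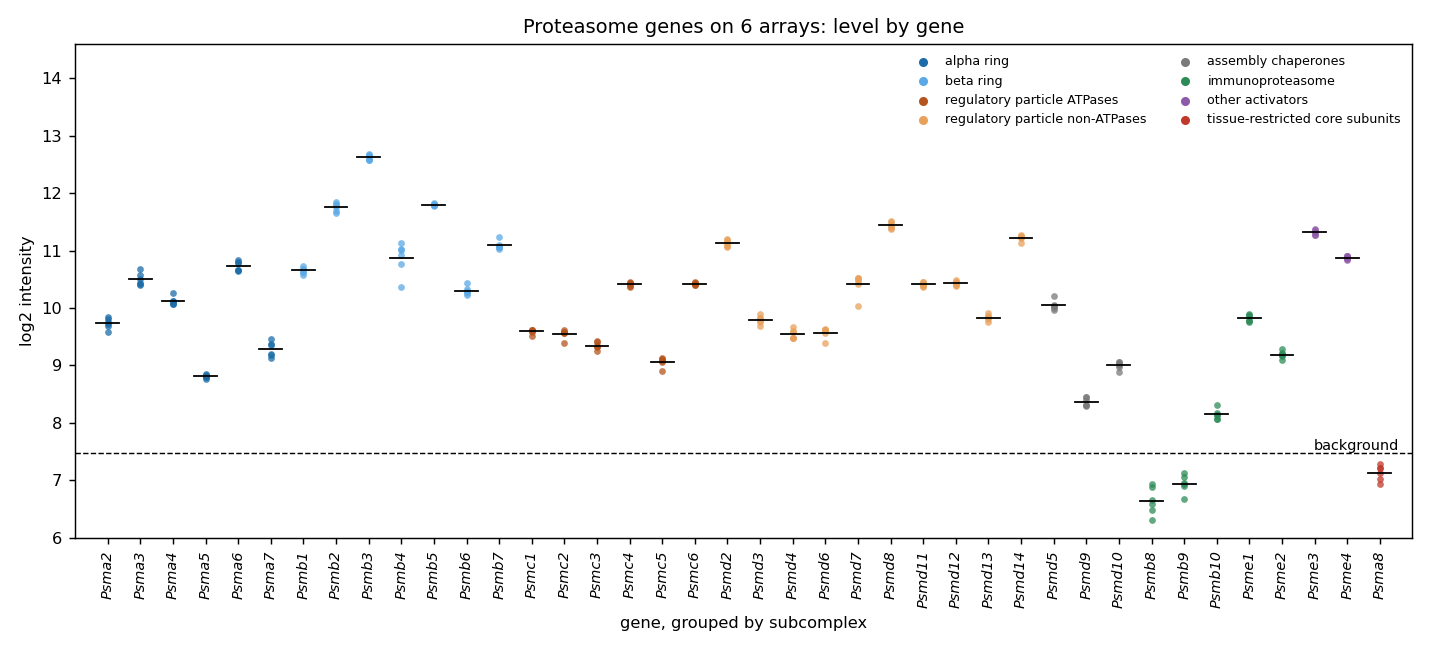
Log2 intensity of the 40 proteasome genes (y axis) by gene and subcomplex (x axis), with a point per array (n = 6), a bar at the mean and a dashed line at the background level of 7.47. Psmb8, Psmb9 and Psma8 lie below the line in all 6 arrays, and Psmb4 and Psmd7 show the widest scatter among the genes above it.

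The catalytic subunits separated into forms above and forms below background. Psmb8, which replaces the chymotrypsin-like subunit Psmb5, had log2 intensities of 6.59, 6.48, 6.88, 6.93, 6.66 and 6.31 in replicates 2, 4, 5, 6, 7 and 8, with a mean of 6.64 ± 0.23 (SD, n = 6). Psmb9, which replaces the caspase-like subunit Psmb6, had log2 intensities of 6.93, 6.89, 7.05, 6.96, 7.12 and 6.68, with a mean of 6.94 ± 0.15 (SD, n = 6). Both genes were lowest in replicate 8, and no array of either reached the background level, so their scatter has no order that can be read. Psmb10, which replaces the trypsin-like subunit Psmb7, had log2 intensities of 8.18, 8.13, 8.32, 8.14, 8.06 and 8.07 and a mean of 8.15 ± 0.093 (SD, n = 6). Psmb10 was thus above background in 6 of 6 arrays while Psmb8 and Psmb9 were in 0 of 6.

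The constitutive counterparts were well above background in every array. Psmb5 had log2 intensities of 11.79, 11.78, 11.82, 11.80, 11.80 and 11.83 in replicates 2, 4, 5, 6, 7 and 8, a mean of 11.80 ± 0.017 (SD, n = 6). This was the narrowest spread of all 37 proteasome genes above background, with 1.03-fold between the highest and the lowest array. Psmb6 had log2 intensities of 10.33, 10.44, 10.29, 10.26, 10.28 and 10.23 and a mean of 10.31 ± 0.074 (SD, n = 6), with replicate 4 as its highest array. Psmb7 had log2 intensities of 11.07, 11.06, 11.24, 11.03, 11.07 and 11.10 and a mean of 11.09 ± 0.075 (SD, n = 6). Its replicate 5 exceeded the mean of the other 5 arrays by 0.18 on the log2 scale, and the SD of those 5 was 0.023. RefSeq lists processed copies of some of these genes, namely Psmb5-ps, Psmb6-ps, Psmb6-ps2, Psmb7-ps1 and Psmb7-ps2, and a copy of Psma5, and the deposited values do not tell signal of a copy from that of the gene.

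The sequences just upstream of the start of transcription are shown for some of the catalytic genes, Psmb5 and Psmb6 as forms above background and Psmb8 and Psmb9 as forms below it. Psmb10, also above background, is not shown, and for Psmb7 no promoter entry was matched. They are taken from RefSeq on build GRCm38.p6 and written 5′ to 3′ on the strand of the gene, ending at the base before the start. Capitals mark the core of the antioxidant response element, TGACNNNGC, the sequence read by the factors of the Nfe2l family, and in Psmb9 a CCAAT box on the opposite strand. Psmb5 is at chr14:54617996-54618095 on the minus strand, Psmb6 at chr11:70525257-70525356 on the plus strand and Psmb8 at chr17:34198095-34198194 on the plus strand. The Psmb9 sequence, at chr17:34187331-34187555 on the minus strand, is the whole stretch of 225 bases between its start and that of Tap1, which is transcribed in the other direction.
Psmb5: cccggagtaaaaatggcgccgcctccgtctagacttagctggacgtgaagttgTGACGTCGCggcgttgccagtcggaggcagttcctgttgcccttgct
Psmb6: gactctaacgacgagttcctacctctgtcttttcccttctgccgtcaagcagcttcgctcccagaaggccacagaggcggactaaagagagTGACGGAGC
Psmb8: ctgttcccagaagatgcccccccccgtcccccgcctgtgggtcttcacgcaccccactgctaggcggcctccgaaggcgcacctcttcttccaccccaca
Psmb9: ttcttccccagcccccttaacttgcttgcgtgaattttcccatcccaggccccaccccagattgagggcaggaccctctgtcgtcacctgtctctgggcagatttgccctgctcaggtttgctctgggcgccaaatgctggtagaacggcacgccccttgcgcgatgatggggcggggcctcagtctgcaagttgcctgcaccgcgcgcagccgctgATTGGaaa

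The genes on both sides of the stretch between Psmb9 and Tap1 were close to or below background. Tap1, a subunit of the transporter that carries peptides into the endoplasmic reticulum, had log2 intensities of 7.84, 7.89, 7.83, 7.86, 7.74 and 7.75 and a mean of 7.82 ± 0.058 (SD, n = 6). It was above background in 6 of 6 arrays, by a small margin, whereas Psmb9 was below in 6 of 6, and at the stricter level of 8.33 neither gene was above background. Psmb8 is the next gene beyond Tap1 on chromosome 17, with 0 genes between them in the RefSeq table.

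The antioxidant response element core was found in the windows of 6 proteasome genes, from 250 bases before to 50 after the start and on either strand. These were Psmb5, Psmb6, Psmc6, Psmd9, Psmd12 and Psme4, and its first base lay 47 bases before the start in Psmb5 and 9 bases before it in Psmb6. Psmb10, above background like Psmb5 and Psmb6, is not among them. Whether this element goes with level was not tested. RefSeq windows were matched for 33 of the 40 genes, with 36 windows in all, and 16.7% of these held the core against 12.4% of all 32851 windows. The CCAAT box, a general promoter element searched as CCAAT, was in 33.3% of the proteasome windows and in 37.4% of all. The core of the interferon response element, searched as GAAANNGAA, was in 16.7% against 8.56%, and the genes were Psmb3, Psmb4, Psmc2, Psmd4, Psmd9 and Psme1. None of these 6 is one of Psmb8, Psmb9 and Psmb10. Such matches describe the letters of a window only, and none of the motifs as searched overlapped another in the sequences shown.

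The alpha ring, the gate and scaffold of the core, had some of the least uniform members. Psma7 had log2 intensities of 9.20, 9.37, 9.13, 9.36, 9.18 and 9.47 in replicates 2, 4, 5, 6, 7 and 8, and a mean of 9.28 ± 0.13 (SD, n = 6). Psma3 ran from 10.40 to 10.67 with a median of 10.47 and an SD of 0.11, and Psma2 ran from 9.58 to 9.84 with a median of 9.74 and an SD of 0.095. Psma7 and Psma2 were lowest in replicate 5 and Psma3 was lowest in replicate 2, so the widest alpha subunits did not share their low array. Psma6 had an SD of 0.087 and Psma4 of 0.074, and Psma5 was the steadiest of the ring, at 8.81 ± 0.034 (SD, n = 6). Psma8, the germ cell counterpart of Psma7, ran from 6.93 to 7.28 with a mean of 7.13 ± 0.13 (SD, n = 6), below background throughout.

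Psmb4 had the largest spread of all proteasome genes. It is a structural beta subunit, and its log2 intensities were 11.14, 11.03, 10.76, 10.92, 11.01 and 10.36 in replicates 2, 4, 5, 6, 7 and 8. The mean was 10.87 ± 0.28 (SD, n = 6), and the highest array exceeded the lowest 1.71-fold. Replicate 8 was lowest, and the mean of the other 5 arrays was 1.53-fold higher than it. Without replicate 8 the SD was 0.14, which still exceeded the SD over 6 arrays of every other member of the beta ring. The 3 remaining structural beta subunits were steadier. Psmb3 ran from 12.57 to 12.69 with an SD of 0.052, Psmb1 had an SD of 0.053, and Psmb2 had an SD of 0.074.

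In the regulatory particle the ATPases varied little, with SDs from 0.022 to 0.079. Psmc6 was the second steadiest proteasome gene, with log2 intensities of 10.44, 10.43, 10.40, 10.40, 10.41 and 10.45 and 1.04-fold between its highest and lowest arrays. Psmc4 was at 10.42 ± 0.030 (SD, n = 6) and Psmc1 at 9.59 ± 0.040 (SD, n = 6). Psmc2 and Psmc5 had the largest SDs of the ring, 0.078 and 0.079, and in both a single low array, replicate 5, made up most of it.

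The non-ATPases ranged from an SD of 0.037 in Psmd11 to 0.19 in Psmd7. Psmd7, the partner of the deubiquitinase Psmd14 in the lid, had log2 intensities of 10.51, 10.52, 10.04, 10.48, 10.42 and 10.52. The mean was 10.42 ± 0.19 (SD, n = 6), and replicate 5 lay far below the rest, which were 1.37-fold higher. Without replicate 5 the SD of Psmd7 fell to 0.042. Psmd14 itself had log2 intensities of 11.25, 11.27, 11.21, 11.24, 11.13 and 11.24, with replicate 7 lowest and replicate 5 close to the others. Psmd2, a scaffold that binds ubiquitin carriers, was at 11.13 ± 0.053, Psmd8 at 11.45 ± 0.053 and Psmd12 at 10.44 ± 0.041 (SD, n = 6 each).

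Psmd4 is a ubiquitin receptor of the regulatory particle, and Psmd5, Psmd9 and Psmd10 are chaperones that assist assembly of its base. The study used these 4 genes as a gene set in a classifier, which it had chosen on other arrays, so their place there says nothing about the cultures described here. Psmd4 had log2 intensities of 9.60, 9.67, 9.59, 9.47, 9.48 and 9.48 in replicates 2, 4, 5, 6, 7 and 8. Psmd5 ran from 9.97 to 10.20 with a median of 10.03. The high array of Psmd5 was replicate 8, at 1.14-fold the mean of the other 5, and Psmd4 was not high there. Psmd9 ran from 8.29 to 8.45 with a median of 8.36, and Psmd10 ran from 8.88 to 9.06 with a median of 9.02. The mean of the set had an SD of 0.040 over arrays and a range of 0.099 on the log2 scale, with its lowest value, 9.17, in replicate 6. All 4 genes were above background, and the largest SD among them was 0.082, in Psmd4.

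Of the activators that can cap the core in place of the regulatory particle, Psme3 and Psme4 had lower SDs than Psme1 and Psme2. Psme1 had log2 intensities of 9.76, 9.78, 9.79, 9.87, 9.90 and 9.88 in replicates 2, 4, 5, 6, 7 and 8, and a mean of 9.83 ± 0.061 (SD, n = 6). Psme2, its partner in the same ring, had 9.28, 9.21, 9.18, 9.17, 9.20 and 9.09 and a mean of 9.19 ± 0.062 (SD, n = 6). In replicate 2 Psme1 was lowest and Psme2 highest, so the partners did not follow each other across arrays. Both genes lie on chromosome 14 with 1 gene, Emc9, between them, and the close copy Psme2b may share signal with Psme2. Psme3, which forms a nuclear activator, ran from 11.27 to 11.37 with a median of 11.32 and an SD of 0.042. Psme4, a large activator used in the nucleus, ran from 10.83 to 10.90 with a median of 10.88 and an SD of 0.030.

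Over the 37 genes above background, the median SD was 0.067 on the log2 scale, against 0.076 over all genes above background. An SD under the latter value was found for 25 of the 37. When each SD was ranked among the 500 genes of nearest mean level, the median rank of the proteasome genes was at 45.2%, so at matched level they were close to the middle. Between the highest and the lowest array of a gene there was a 1.03-fold to 1.71-fold difference, with a median of 1.13-fold, and in 32 genes it was under 1.2-fold. An SD above 0.2 was found for 1 gene, Psmb4, or 2.70%, against 4.16% of all genes above background. On the linear scale the median coefficient of variation was 4.54%.

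The groups differed in where their members ranked. The median rank of the SD among genes of like level was 77.8% for the alpha ring and 66.8% for the beta ring. It was 26.4% for the ATPases, 47.1% for the non-ATPases, 43.4% for the assembly chaperones and 42.8% for the 3 immunoproteasome genes above background. For the constitutive core as a whole it was 67.2% and for the regulatory particle 43.9%, so core genes ranked wider than regulatory particle genes at matched level. These ranks are descriptions of few genes per group, and no test was made of their difference. Psmb4 ranked at 99.2%, Psmd7 at 98% and Psma7 at 89.8%, and Psmb5 ranked at 1.4%.

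**Figure D2:**
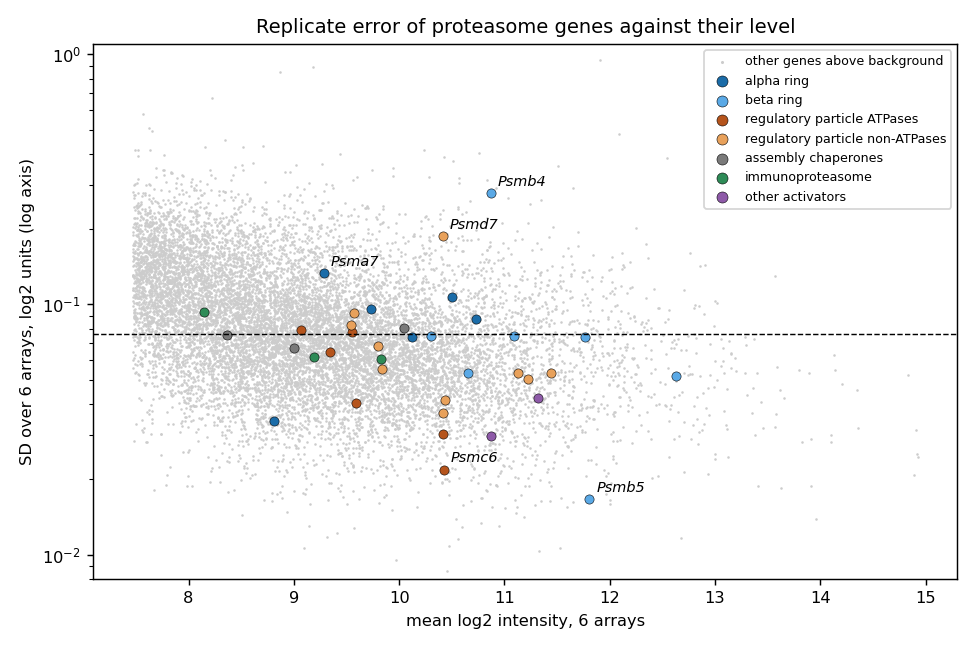
SD over 6 arrays in log2 units (y axis, log scale) against mean log2 intensity (x axis) for the 37 proteasome genes above background, coloured by subcomplex, over all other genes above background in grey. The dashed line is the median SD of all these genes, 0.076, and Psmb4, Psmd7 and Psma7 lie above it while Psmb5 and Psmc6 lie far below.

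Single arrays that lay apart from the other 5 were looked for with Dixon's ratio, the gap from the extreme array to its neighbour divided by the whole range and set against its 95% limit for 6 values. The ratio passed this limit in 9 of the 37 proteasome genes, or 24.3%, against 6.97% of all genes above background. In 5 of these the array apart was replicate 5, which is 13.5% of the proteasome genes against 1.81% of all genes. It was replicate 8 in 2, which is 5.41% against 3.78%. The proteasome genes therefore held more such cases than the array as a whole, and 5 of the 9 lay in replicate 5. With replicate 5 left out and the limit for 5 values, 3 genes passed, namely Psma4, Psmb4 and Psmd14, against 5.52% of all genes. With replicate 4 left out 5 passed, against 7.29% of all genes. This statement describes 37 genes that share the same 6 RNA samples, and was given no test.

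The 4 genes in which replicate 5 lay apart on the low side all belong to the regulatory particle. Outside it, replicate 5 was also the lowest array for Psma2, Psma5, Psma7, Psmb1 and Psme4, without passing the limit. In Psma2 it was at 9.58 and the mean of the other 5 at 9.77, a gap similar to that of Psmc2. In Psma7 these values were 9.13 and 9.31, so low values in replicate 5 were not confined to the regulatory particle. In Psmc2, log2 intensities were 9.56, 9.61, 9.40, 9.58, 9.57 and 9.58 in replicates 2, 4, 5, 6, 7 and 8, and replicate 5 lay 0.19 under the mean of the other 5, whose SD was 0.017. In Psmc5 they were 9.11, 9.10, 8.91, 9.06, 9.08 and 9.12, and the other 5 arrays were 1.14-fold higher than replicate 5. In Psmd6, a subunit of the lid, they were 9.57, 9.63, 9.39, 9.62, 9.61 and 9.61, and the other 5 were 1.17-fold higher. With Psmd7 this makes 4 genes whose replicate 5 lay below all other arrays by more than these differed among themselves. Psmb7 of the core went the other way, with replicate 5 above the rest by 1.13-fold. Psmb10 was also highest in replicate 5, although its gap did not pass the limit.

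The remaining cases were small and spread over arrays. In Psma4, replicate 8 at 10.26 was 1.13-fold above the mean of the other 5, whose SD was 0.026. In Psmd5, replicate 8 was above the others by 0.18 on the log2 scale. In Psmc1, replicate 6 was lowest and the others were 1.07-fold higher, and in Psmd14 the others were 1.08-fold higher than replicate 7. Psmb4 did not pass the limit although it had the largest gap, as its other arrays had an SD of 0.14 themselves (n = 5).

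**Figure D3:**
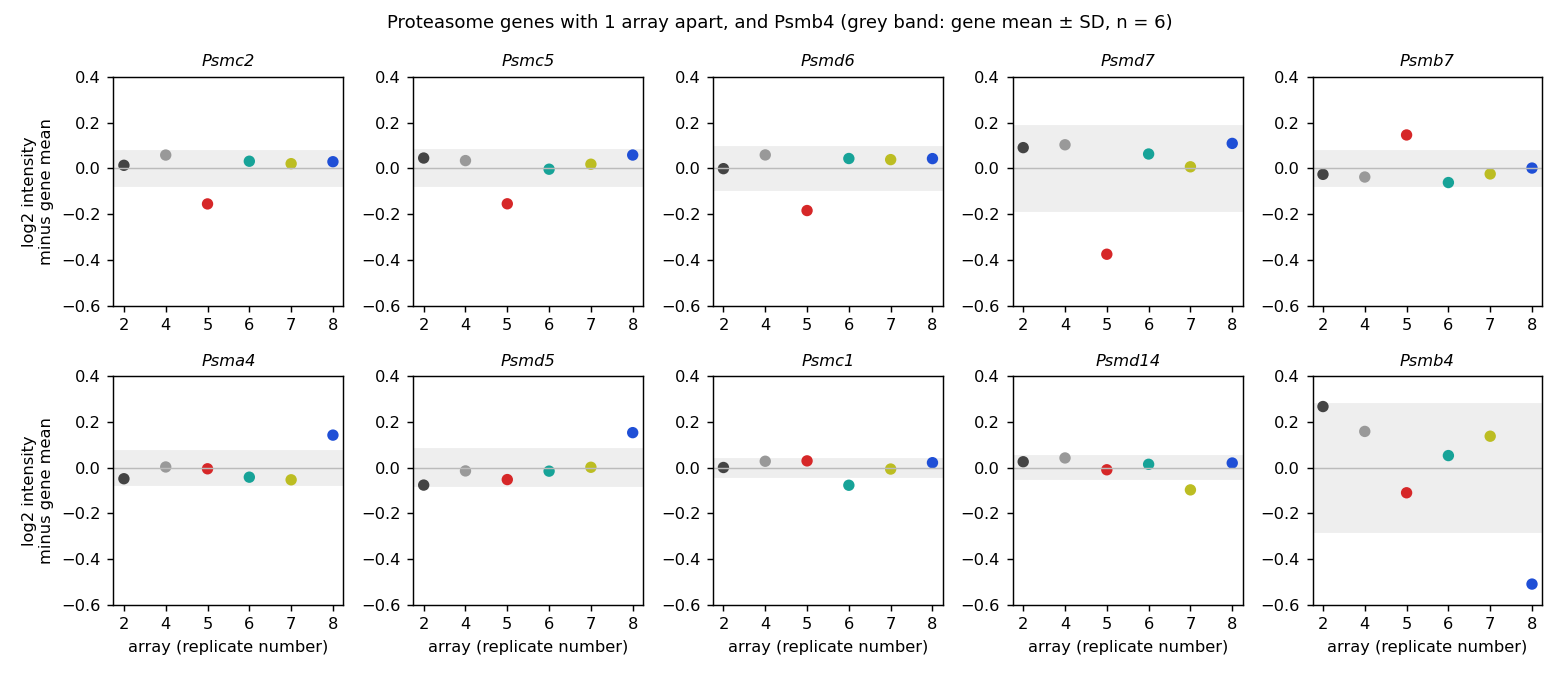
Log2 intensity minus the mean of the gene (y axis) in each array (x axis, replicate number) for the 9 proteasome genes with an array apart and for Psmb4, with a grey band at the mean ± SD (n = 6). Replicate 5, in red, is alone at the bottom for Psmc2, Psmc5, Psmd6 and Psmd7 and alone at the top for Psmb7, and replicate 8, in blue, is lowest for Psmb4.

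Replicate 5 was the lowest array for 12 of the 37 proteasome genes, or 32.4%, against 19.6% of all genes above background. Replicate 8 was the highest for 12 genes, or 32.4% against 27.5%, and the lowest for 6, or 16.2% against 26.4%. Replicate 5 was also the highest array for 8 proteasome genes, against 20.4% of all genes, and these included Psmc1, Psmc4, Psmd2 and Psmd3 of the regulatory particle. Replicate 4 was the lowest for 1 gene, Psmb5. The share of replicate 5 as lowest array is thus higher among the proteasome genes than on the whole array, and that of replicate 8 is lower.

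**Figure D4:**
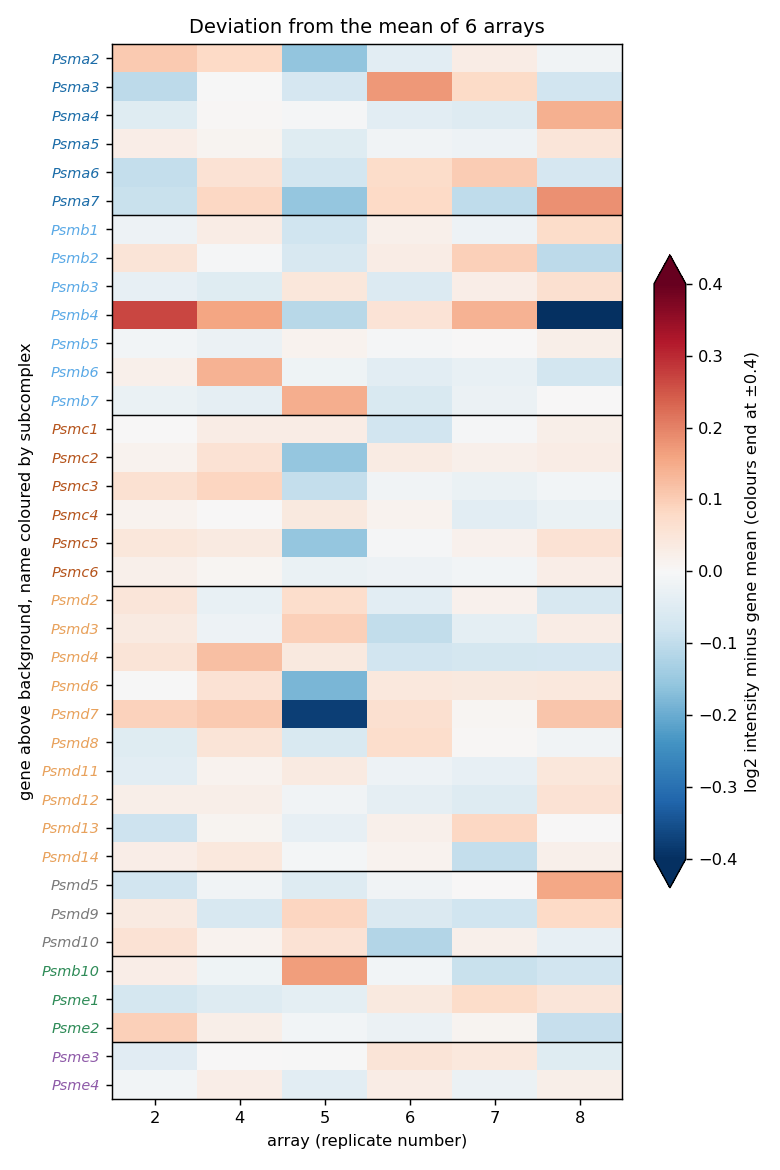
Log2 intensity minus the mean of each gene over 6 arrays (colour, ending at ±0.4) for the 37 proteasome genes above background (y axis, by subcomplex) in each array (x axis, replicate number). The darkest cells are Psmb4 in replicate 8 and Psmd7 in replicate 5, and most other cells are pale.

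The means of groups had small SDs over arrays, but averaging over genes lowers an SD by itself. These SDs are therefore not comparable with those of single genes. The mean over all 37 genes was 10.20 with an SD of 0.019, from 10.16 in replicate 5 to 10.22 in replicate 4. The constitutive core had means of 10.64, 10.67, 10.59, 10.65, 10.66 and 10.61 in replicates 2, 4, 5, 6, 7 and 8, with an SD of 0.029. The regulatory particle had means of 10.15, 10.17, 10.09, 10.13, 10.13 and 10.15, with an SD of 0.030. Both were lowest in replicate 5 and highest in replicate 4, and without replicate 5 the SD of the regulatory particle was 0.020. The 3 immunoproteasome genes above background had means of 9.07, 9.04, 9.10, 9.06, 9.05 and 9.02, with an SD of 0.028, and were highest in replicate 5 and lowest in replicate 8. With Psmb8 and Psmb9 included the SD of this mean was 0.086.

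The balance between groups was read from the difference of their means in each array, relative to its own mean over arrays. Core minus regulatory particle had an SD of 0.025 and a range of 0.069 on the log2 scale, which is 1.05-fold between replicate 7 and replicate 8, and without replicate 8 the range was 0.041. The immunoproteasome mean used here is that of Psmb10, Psme1 and Psme2, as Psmb8 and Psmb9 were below background. Core minus this mean had an SD of 0.046 and a range of 0.13. Regulatory particle minus this mean had an SD of 0.053 and a range of 0.15, with replicate 5 lowest in both differences. Differences with Psmb8 and Psmb9 included were not computed. Without replicate 5 the SDs of these differences were 0.022 and 0.034 and the ranges 0.063 and 0.068. ATPases minus non-ATPases had the smallest SD, 0.011, and a range of 0.033, or 1.02-fold, which was 0.022 on the log2 scale without replicate 5. Alpha ring minus beta ring had the largest SD, 0.071, with replicate 8 at +0.11 and replicate 5 at -0.075, and without replicate 8 its SD was 0.052 and its range fell from 0.19 to 0.12. In replicate 8 the mean of the beta ring was 11.23, its lowest, and Psmb4 was low in the same array. Without replicate 8 the SD of the mean of the beta ring fell from 0.042 to 0.022.

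**Figure D5:**
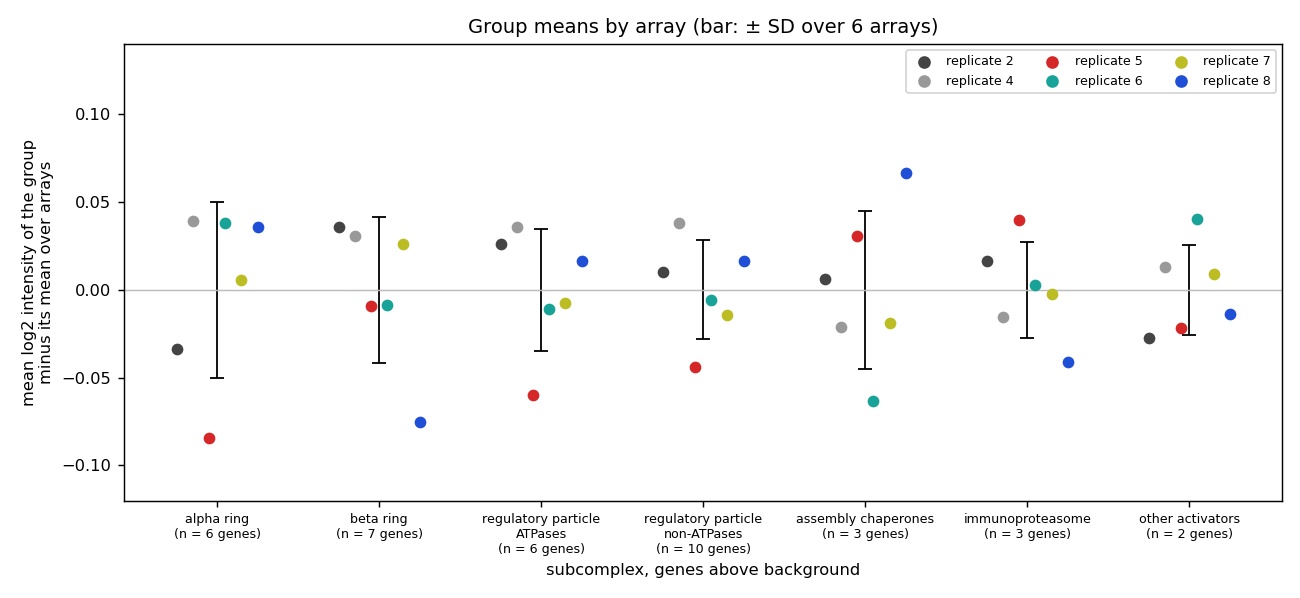
Mean log2 intensity of each proteasome group minus its own mean over arrays (y axis) for each group (x axis), with a point per array and a bar of ± SD over 6 arrays. Only genes above background are averaged, so the immunoproteasome is the mean of Psmb10, Psme1 and Psme2. Replicate 5 is the lowest point of the alpha ring, the ATPases and the non-ATPases and the highest of the immunoproteasome, and replicate 8 is the lowest point of the beta ring.

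In the values as deposited, pairs of proteasome genes were in the median almost uncorrelated across arrays. The median Pearson's r over the 6 arrays between 2 proteasome genes was 0.030 over 666 pairs, and over all pairs of genes above background it was -0.00055. An r over 0.9 was found in 2.10% of proteasome pairs and in 1.70% of all pairs, and an r under -0.9 in 1.95% and 1.38%. The median r was -0.064 within the core, 0.13 within the regulatory particle and 0.11 between them. Within the immunoproteasome the 3 pairs had a median of -0.64. With 6 points such values are loose, and all pairs share the same 6 arrays. When each array was centred on its own median the median r became 0.25 among proteasome genes and 0.11 among all genes, so both medians moved with the scaling.

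Psmc2, Psmc5, Psmd6 and Psmd7, put together for their low replicate 5 after their values were seen, had r from 0.92 to 0.99 over their 6 pairs. Without replicate 5 the same pairs ran from -0.26 to 0.81 with a median of 0.20. Without replicate 8 in its place they ran from 0.93 to 0.99. The choice of these 4 genes by that array fixes a high r with it, so these values only describe them.

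Genes that assemble the proteasome or work with it were measured as well. Of the assembly factors, 4 of the 5 measured were above background, and Psmg3 was not, at 6.85 ± 0.15 (SD, n = 6). Pomp, which matures the core, had log2 intensities of 9.32, 9.56, 9.27, 9.55, 9.60 and 9.71 in replicates 2, 4, 5, 6, 7 and 8. Its mean was 9.50 ± 0.17 (SD, n = 6), wider than all proteasome genes above background but Psmb4 and Psmd7, with replicate 5 lowest. All 11 proteasome-associated genes were above background, with a median SD of 0.050. They include the ubiquitin receptor Adrm1 at 10.80 ± 0.037 and the thioredoxin-like Txnl1 at 10.41 ± 0.019 (SD, n = 6 each).

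All 5 regulators of proteasome supply were above background. Nfe2l1, the factor that raises proteasome genes when the proteasome is blocked, had log2 intensities of 11.44, 11.44, 11.51, 11.36, 11.36 and 11.26. It was highest in replicate 5, the array in which the mean of the 37 proteasome genes was lowest, and lowest in replicate 8. Nfe2l2, a related factor, was lowest in replicate 5, at 9.72, and highest in replicate 4, at 9.90. Ddi2, the protease that releases Nfe2l1, was at 9.64 ± 0.038, and Ngly1, which removes its sugars, at 8.27 ± 0.064 (SD, n = 6 each). Akirin2, which brings proteasomes into the nucleus, was at 10.92 ± 0.062 (SD, n = 6). Of the genes of ubiquitin supply, Ubb was at 13.91 ± 0.019 and Uba1, the first enzyme of the cascade, at 12.46 ± 0.021 (SD, n = 6 each). Ubiquitin genes share near-identical coding sequence, so the level of Ubb is uncertain.

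Of the 10 genes of antigen processing and interferon signalling that accompany the immunoproteasome, 6 were above background, against 65.2% of all genes. Among these were Tap1, Tapbp, B2m, H2-K1 and H2-D1, and B2m, the light chain of class I molecules, was at 10.23 ± 0.091 (SD, n = 6). Tap2, Erap1, Nlrc5 and Irf1 were below, and Irf1, a factor induced by interferon, was at 7.28 ± 0.071 (SD, n = 6). H2-K1 and H2-D1 belong to a family of near-identical genes and their values are uncertain.

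Markers of cells that could carry the immunoproteasome were read beside these values. Of 5 immune cell markers, Itgam, Csf1r and Cd68 were above background and Ptprc, the common leukocyte marker, was below at 6.97 ± 0.13, as was Aif1 at 6.57 ± 0.053 (SD, n = 6 each). At the stricter level of 8.33 none of the 5 was above background, and Csf1r passed 7.47 in 5 of 6 arrays. The mean of the 5 ran from 7.40 in replicate 8 to 7.60 in replicate 7. Of 3 endothelial markers, Cdh5 was above background, and the mean of the 3 ran from 7.28 to 7.39. The 4 markers of the motor neuron lineage, Olig2, Mnx1, Isl1 and Lhx3, were all above background, with array means from 9.03 to 9.23 that were highest in replicate 5. Of 3 pluripotency markers, Nanog was above background at 8.94 ± 0.12 (SD, n = 6) and was highest in replicate 6, whereas the means of Pou5f1 and Zfp42 were below it. Pou5f1 passed it in 1 of 6 arrays, replicate 5, at 7.63, and Zfp42 passed it in 3 of 6. The mean of the 3 markers ran from 7.82 in replicate 2 to 8.07 in replicate 5. The part of the mixture of cells in the differences of replicate 5 was not tested.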

How the data were processed

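Embryoid body RNA was extracted with Trizol, labelled with the GeneChip WT Terminal Labeling kit and hybridised to Affymetrix mouse exon arrays. The deposited table holds linear intensities. Per the methods, the authors obtained these intensities by RMA in Aroma Affymetrix as the mean over all exons of a gene in annotation release 33, and the processing notes name Affymetrix Expression Console and RMA. The methods describe a screen that removed outlying arrays within each batch of embryoid bodies, without naming these arrays, so the SDs may describe an already screened set. The batch of each array, which arrays were normalized together with these 6 and the genome build are not given in the sources used here. Averaging over exons hides differences between isoforms, and RMA pulls the arrays towards 1 distribution, which lowers the SD between them.

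Here the intensities were turned to log2 with no pseudocount (Python 3.11.15, pandas 2.3.3, NumPy 2.4.6). With 1 group and no control, no test was made. Values with an array apart were found by Dixon's ratio, and the steps were tested on simulated data. Arrays give no read depth, and their number, 6, limits the precision. The table held 0 columns of other samples. Subcomplexes were assigned by textbook roles. Named genes were the 5 immunoproteasome genes, Psmb5, Psmb6 and Psmb7, the classifier gene set, Psme3, Psme4, genes below background, and the 5 largest and 3 smallest SDs. Psmc1, Psmc2, Psmc5, Psma4, Psmd14 and others are named for an array apart or to complete a subcomplex. A few genes of the lists are not reported here. The genes and lists were chosen with earlier results of these data known. Alternatives were median centring, quantile normalization, a stricter background, no filter on low values, a pseudocount of 50 and leaving out each array.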

Additional observations from a re-analysis of the deposited data

Results flagged for a closer look

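In 9 proteasome genes 1 of the 6 arrays lay apart from the others by more than the 95% limit on Dixon's ratio. Chance takes about 1 gene in 20 past such a limit, and 6.97% of all genes above background passed it. The limit was applied to 51 values, namely the 40 proteasome genes and 11 group means, and no group mean passed. For replicate 5 the ratio was 0.790 in Psmc2, 0.789 in Psmd7, 0.753 in Psmd6 and 0.709 in Psmc5, all low, and 0.696 in Psmb7, high. For replicate 8 it was 0.713 in Psma4 and 0.660 in Psmd5, both high. It was 0.665 in Psmc1 for a low replicate 6 and 0.629 in Psmd14 for a low replicate 7.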

How the results depend on the processing

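Of 142 values that summarise the proteasome genes under an alternative, 129 stayed within a limit and 13 moved beyond it. For counts the limit was 1.5 times, and for other values a jackknife error, estimated from the values with each array left out in turn. Values without an array were thus judged against an error that they had set themselves, so for them the count is a weak check. The median r, at 0.030, changed sign in 2 of the 142, to -0.0086 with no filter on low values and to -0.0087 without replicate 4. Under median centring of the arrays the median r rose to 0.25, and the SD of the group mean became 0.054 for the ATPases, 0.048 for the non-ATPases, 0.050 for the whole regulatory particle, 0.064 for the assembly chaperones and 0.015 for the immunoproteasome. The latter was 0.086 with no filter on low values. Leaving out an array gave a median SD from 0.051, without replicate 5, to 0.071. The SD of the group mean then ran from 0.032, without replicate 5, to 0.056 for the alpha ring, from 0.022, without replicate 8, to 0.046 for the beta ring, and from 0.021, without replicate 5, to 0.039 for the ATPases. The number of genes with an array apart is an outcome whose alternatives were added after the data were seen. With an array left out it ran from 3, without replicate 5, to 6, and the share of all genes from 5.04% to 7.29%. It was 8 under median centring, 5 of them among the 9, against 7.88% of all genes, and 6 after quantile normalization, against 6.07%. Psmc2, Psmd6 and Psmd7 were among the genes with an array apart in every setting that kept replicate 5. The gap of the extreme array in 10 genes was read under median centring, quantile normalization and the pseudocount, 30 values in all, and kept its sign in each. In 10 of the 30 its size moved by more than the SD of the other 5 arrays, all under median centring or quantile normalization. Mean levels of the 21 named genes moved by more than their SD with the pseudocount of 50 in 12 cases and in 0 of 168 others. Most of the 168 could not have moved so far, as median centring keeps the mean of a gene over arrays. Leaving out 1 of 6 arrays cannot move that mean by a full SD either. The cause of the shifts under these alternatives was not tested. No paired analysis was possible because there is a single group. Genes near background, such as Psmb10, have the least reliable values.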
